A study of Mus musculus with 14 samples.

Results

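Of the 20308 gene symbols in the deposited table, 81 were histone genes other than Hist4h4. They were taken by symbol, as every row that starts with Hist1h, Hist2h, Hist3h, H2af, H3f3 or H1f. They were split into 63 replication-dependent genes, 10 replacement variants and 8 genes known from testis or oocyte. RNA was measured by sequencing of polyadenylated transcripts in bladder urothelium, the epithelium that lines the bladder, from mouse embryos of mixed C57BL/6; 129S4 background at embryonic day 15.5. The 14 libraries fell into 3 genotype groups: Cre-negative littermates (n = 7), Control embryos that are Shhcre/+; Dnmt1flox/+ (n = 2) and Dnmt1cKO embryos that are Shhcre/+; Dnmt1flox/flox (n = 5). Cre is expressed from the Shh locus, which is active in this epithelium, and deletes floxed alleles of Dnmt1, the maintenance DNA methyltransferase. Each library was made from 1 lysate in which dissected urothelium of several embryos had been pooled, so a p-value here reflects how pooled lysates vary. The labels do not give the Dnmt1 alleles of the Cre-negative littermates. The question put to these genes is whether histone transcripts other than Hist4h4 differ in level between the genotypes.

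Nucleosomes are built from the core histones H2A, H2B, H3 and H4, and linker histone H1 binds between them. Replication-dependent histone genes lie in clusters without introns for the most part and are transcribed in S phase, and their mRNAs end in a stem-loop that is bound by the protein SLBP in place of a poly(A) tail. Replacement variants such as H3.3 and H2A.Z are encoded by dispersed genes whose mRNAs carry a poly(A) tail and are made throughout the cell cycle. Since the libraries were built from RNA held on oligo-dT beads, a replication-dependent transcript without a tail would be largely lost before sequencing.

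The stem-loop is shown because it is the 3′ end signal that separates these gene groups. A 16-letter pattern of the histone stem-loop, which fixes the bases that all printed forms have in common, was found on the sense strand of an annotated GENCODE M21 transcript of 42 of the 63 replication-dependent genes, 1 of the 10 replacement variants, and 51 of 19327 annotated genes of the table (0.264%). Each sequence below is given 5′ to 3′ on the transcript strand with 5 flanking bases on either side, and the capitals mark the 16 letters of the stem and loop. All lie on chromosome 13 of GRCm38 except Hist2h2ac and Hist3h2a, on chromosomes 3 and 11, and H2afx, on chromosome 9.
Hist1h1c: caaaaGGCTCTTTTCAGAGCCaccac
Hist3h2a: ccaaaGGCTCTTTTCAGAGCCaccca
Hist1h2bk: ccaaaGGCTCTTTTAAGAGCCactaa
Hist2h2ac: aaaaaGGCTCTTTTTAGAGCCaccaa
Hist1h3g: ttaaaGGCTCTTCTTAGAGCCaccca
Hist1h4n: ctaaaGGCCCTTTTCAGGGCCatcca
Hist1h4i: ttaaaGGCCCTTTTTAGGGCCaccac
Hist1h4a: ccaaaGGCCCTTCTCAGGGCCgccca
H2afx: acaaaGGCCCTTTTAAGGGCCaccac
The form of Hist1h1c and Hist3h2a was shared by 26 members of the H1, H2A, H2B and H3 families. The form of Hist1h4n was found in 6 members, all of them H4 genes.

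The replication-dependent genes lie in 3 clusters. The Hist1 cluster spans chromosome 13 from 21715763 to 23934851 in 2 blocks of 23 and 31 members with the testis genes included, the Hist2 cluster lies on chromosome 3 from 96219865 to 96270132 with 10 members, and the Hist3 members lie on chromosome 11 from 58948920 to 58956830. RefSeq promoters (250 bases before to 50 after the annotated start, GRCm38.p6) were matched for 75 of the 81 members. The letters CCAAT, searched on both strands, were present in all matched promoters of replication-dependent H1, H2A, H2B and H3 genes (5, 17, 15 and 10) and in 3 of 11 of H4 genes, beside 37.9% of all 27025 promoters. TATAAA was found in 33 of 58 replication-dependent promoters (14.2% of all promoters), and ATTTGCAT, the octamer known from H2B promoters, in 5 of 15 H2B and 6 of 17 H2A promoters (1.75% of all). AAACACA, known as the H1 box, was found in 4 of 5 H1 promoters (7.14% of all), and TTTCGCGC in 9 replication-dependent promoters, all of them H2A or H2B (0.318% of all). Some H2A and H2B promoters overlap on opposite strands, so that the same site is counted for both genes. This holds for TTTCGCGC in Hist1h2ad and Hist1h2bf and for the octamer in Hist1h2ae and Hist1h2bg, among others. These counts are therefore of promoters and not of separate sites. Promoters of 1 replication-dependent gene and 1 replacement variant with counts in every library are given on the strand of transcription, with matches on either strand in capitals. Hist1h1c lies at chr13:23738557-23738856 on the plus strand, with AAACACA and CCAAT in capitals. H3f3b lies at chr11:116024455-116024754 on the minus strand, with matches to CCAAT and to TATAAA and 1 to the octamer on the opposite strand in capitals.
Hist1h1c: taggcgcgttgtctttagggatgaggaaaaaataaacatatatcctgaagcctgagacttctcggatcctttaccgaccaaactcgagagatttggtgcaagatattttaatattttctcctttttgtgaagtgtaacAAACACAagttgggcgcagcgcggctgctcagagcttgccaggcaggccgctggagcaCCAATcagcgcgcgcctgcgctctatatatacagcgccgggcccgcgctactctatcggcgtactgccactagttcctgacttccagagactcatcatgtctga
H3f3b: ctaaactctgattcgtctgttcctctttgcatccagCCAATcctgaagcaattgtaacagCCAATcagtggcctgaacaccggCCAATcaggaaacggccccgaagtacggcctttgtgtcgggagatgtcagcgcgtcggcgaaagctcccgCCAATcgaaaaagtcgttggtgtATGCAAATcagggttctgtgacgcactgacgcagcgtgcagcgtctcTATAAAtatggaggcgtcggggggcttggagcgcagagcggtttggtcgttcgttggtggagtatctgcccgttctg

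Library totals ran from 2520509 to 13131921 expected counts, and 9397 to 13729 genes had counts. Dnmt1, the targeted gene, measured 9.99, 26.7, 31.2 and 49.1 CPM (counts per 1000000, scaled by TMM) in Dnmt1cKO libraries 1, 2, 4 and 5, and 123 CPM in the library labelled Dnmt1cKO 3. The Cre-negative libraries held 41.3 to 192 CPM and the Control libraries 97.4 and 106 CPM, so that the library labelled Dnmt1cKO 3 did not show the loss its label gives. Dnmt1cKO 5 also lay within the Cre-negative range. Dnmt1 itself did not pass the edgeR test. Its log2 fold change was -1.31 ± 0.51 (SE) against Cre-negative (adjusted p = 0.249) and -1.08 ± 0.68 against Control (adjusted p = 0.95). Hist4h4 stood at 2983 CPM in the library labelled Dnmt1cKO 3, as in the other Dnmt1cKO libraries (2211 to 4786 CPM) and unlike the Cre-negative and Control libraries (1.63 to 23.3 CPM). Counts were per gene, and exons outside the floxed part can still give reads from a deleted allele. Urothelium genes were present, with Upk1a, a uroplakin, at 293 to 757 CPM and Krt5, a basal keratin, at 108 to 343 CPM over the 14 libraries. Stroma and smooth muscle genes were also present, at a summed 191 to 3487 CPM over 20 genes in Cre-negative, 3630 and 13548 CPM in Control, and 267 to 13120 CPM in the Dnmt1cKO group, with the library labelled Dnmt1cKO 3 and Dnmt1cKO 4 the highest of the last group. Of these 20 genes, all 20 had a higher fitted level in Dnmt1cKO than in Cre-negative libraries (beside 47.9% of all genes tested) and 2 passed the test (beside 1.1% in either direction). Col1a1, the chain of type I collagen, reached 0 counts in no library, whereas the leukocyte gene Ptprc was at 0 in 9 libraries. In such bulk samples fewer cells of a type and less RNA per cell cannot be told apart.

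Transcripts of the 10 replacement variants made up most of the counts of the 81 histone genes in each library. Their summed level was 3495 to 6381 CPM in the Cre-negative group, 4522 and 6781 CPM in the Control group and 3598 to 9003 CPM in the Dnmt1cKO group. The 63 replication-dependent genes together held 71.1 to 303 CPM in the Cre-negative group, 110 and 113 CPM in the Control group and 175 to 440 CPM in the Dnmt1cKO group. They accounted for 1.64% to 7.18% of the counts of both classes per library. Hist4h4 alone, which is not among these genes, measured more than all 63 replication-dependent genes together in each Dnmt1cKO library, and in Dnmt1cKO 2 its 4187 CPM exceeded the 3598 CPM of the replacement variants. The 8 testis or oocyte genes (H1fnt, H1foo, H2afb1, H2afb2, H2afb3, Hist1h1t, Hist1h2aa and Hist1h2ba) had 0 counts in all 14 libraries. A count of 0 allows up to 3 counts, which is 0.228 CPM in the deepest and 1.19 CPM in the shallowest library by their totals without TMM scaling.

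None of the histone genes other than Hist4h4 that could be tested passed the test in any comparison, whereas Hist4h4 passed in all 3 (adjusted p in edgeR of 4.0e-15 for Dnmt1cKO against Cre-negative, 1.8e-07 against Control and 0.0025 between Control and Cre-negative). A filter on low counts kept 35 of the 81 members, namely all 10 replacement variants and 25 of the 63 replication-dependent genes, among 13011 genes in all. Dnmt1cKO was compared with Cre-negative, Dnmt1cKO with Control, and Control with Cre-negative, and these comparisons share libraries. Of the 35 tested members, 0 were called in each by the quasi-likelihood test of edgeR with Benjamini-Hochberg adjustment at adjusted p under 0.05. Over all genes tested, 1.1%, 0.177% and 0.0538% were called in these comparisons in that order. At an unadjusted p under 0.05, 9 of the 35 members differed between Dnmt1cKO and Cre-negative (25.7%, beside 13.7% of all genes tested), 3 between Dnmt1cKO and Control (8.57%, beside 6.94%) and 1 between Control and Cre-negative (2.86%, beside 3.67%). DESeq2 called 2 members in the Cre-negative comparison, H3f3b higher and Hist1h4n lower in Dnmt1cKO (beside 4.23% of all genes tested), and 1 in the Control comparison, Hist1h4n again (beside 0.853%). The limma-voom fit called H3f3b against Cre-negative (beside 3.49% of all genes tested). The median log2 fold change against Cre-negative was 0.04 over the replacement variants and 1.16 over the 25 tested replication-dependent genes, beside -0.04 over all genes tested. Of these classes 6 of 10 and 19 of 25 were positive (60% and 76%, beside 47.9% of all genes tested). These 25 genes passed a filter that a gene high in only part of the libraries can pass, so their median describes them and not the 63.

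**Figure D1:**
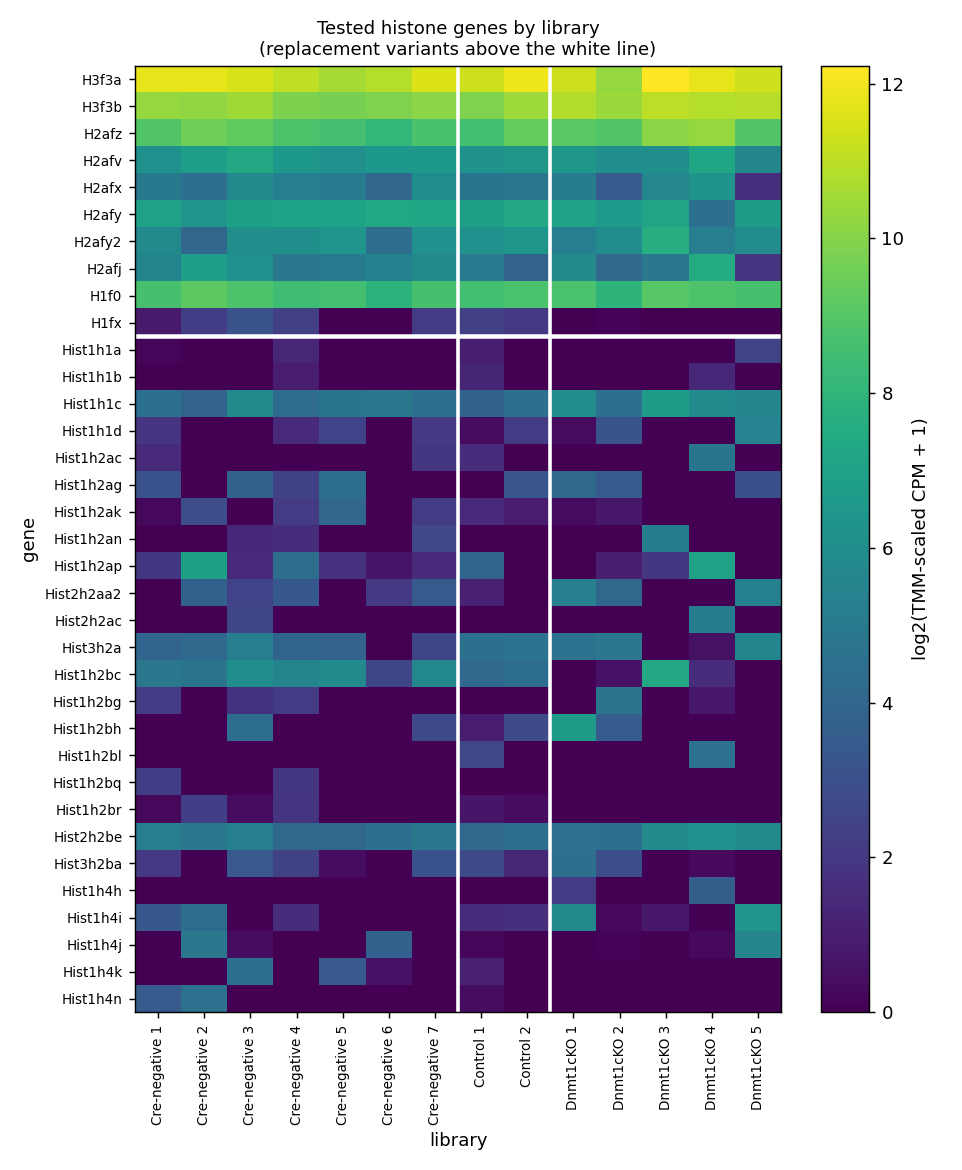
Level of the 35 tested histone genes (rows) in the 14 libraries (columns), as log2(TMM-scaled CPM + 1) in colour, with white lines between the groups and between gene classes. Replacement variants other than H1fx form unbroken bands, whereas most replication-dependent genes are bright in a few libraries and at 0 in the others.

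H3.3, the replacement form of H3 that is deposited outside S phase, is encoded by H3f3a and H3f3b, whose products have the same amino acid sequence. H3f3a was the most abundant member per length, with a mean of 810 CPM per kilobase of exon over the 14 libraries, followed by H3f3b with 457. H3f3b measured 833 to 1454 CPM in Cre-negative libraries with a median of 1099, 942.5 and 1375 CPM in Control libraries, and 1781, 1356, 2085, 1890 and 1966 CPM in Dnmt1cKO libraries 1 to 5. Dnmt1cKO 2 lay within the Cre-negative range and the other 4 Dnmt1cKO libraries above it. Its mean was 1092 ± 225 CPM in the Cre-negative group and 1816 ± 280 CPM in the Dnmt1cKO group (SD; n = 7 and 5), with a log2 fold change of 0.73 ± 0.21 (SE) that missed the threshold in edgeR (adjusted p = 0.0982). The adjusted p was 0.00784 with DESeq2, 0.0175 with limma-voom and 0.0438 without Dnmt1cKO 2, in a range of 0.00784 to 0.536 over all alternatives. The log2 fold change lay between 0.68 and 0.82 in each of them, and it was 0.70 without the library labelled Dnmt1cKO 3 (adjusted p = 0.154) and 0.75 with the mean of the stroma markers as a covariate (adjusted p = 0.254). Against Control its log2 fold change was 0.65 ± 0.31 (adjusted p = 0.718).

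H3f3a had no such separation. It measured 1528 to 3548 CPM in Cre-negative libraries with a median of 2902, 2517 and 3936 CPM in Control libraries, and 2481, 1266, 4810, 3552 and 2601 CPM in Dnmt1cKO libraries 1 to 5. The lowest and the highest of the 14 values were both from Dnmt1cKO libraries. Adjusted p was 0.904 against Cre-negative, and an antisense gene, H3f3aos, overlaps its exons. The 12 replication-dependent H3 genes, by contrast, held 0 to 13.5 CPM in sum per library, beside 2360 to 6895 CPM for the H3.3 genes together. None of these 12 passed the filter, and 5 had no counts in any library.

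H2A.Z, an H2A variant found at promoters, is encoded by H2afz and H2afv. H2afz measured 271 to 743 CPM in Cre-negative libraries with a median of 456, 368 and 642 CPM in Control libraries, and 541, 478, 1104, 1267 and 496 CPM in Dnmt1cKO libraries 1 to 5. Only the library labelled Dnmt1cKO 3 and Dnmt1cKO 4 lay above the Cre-negative range, and these were also the Dnmt1cKO libraries with the highest stroma marker sums, 13120 and 8013 CPM. Control 2, with a stroma marker sum of 13548 CPM, held 642 CPM of H2afz, and Cre-negative 2, with a sum of 191 CPM, held 743 CPM. The log2 fold change of H2afz against Cre-negative was 0.69 ± 0.29 (adjusted p = 0.279), and with the mean of the stroma markers as a covariate it was 0.36 (adjusted p = 0.861). The part of stroma in the H2afz level was not tested. H2afv showed no upward shift, at 69.8 to 164 CPM in the Cre-negative group and 47.8 to 145 CPM in the Dnmt1cKO group (adjusted p = 0.867).

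MacroH2A, an H2A variant with a large extra domain that is enriched on silent chromatin, is encoded by H2afy and H2afy2. H2afy measured 82.5 to 156 CPM in Cre-negative libraries with a median of 135, 119 and 168 CPM in Control libraries, and 130, 95.4, 139, 21.5 and 106 CPM in Dnmt1cKO libraries 1 to 5. Dnmt1cKO 4 was the lowest of the 14 libraries, and the other Dnmt1cKO libraries lay within the Cre-negative range. Against Cre-negative the log2 fold change was -0.39 ± 0.37 (adjusted p = 0.749), and it was -0.55 ± 0.51 against Control (adjusted p = 1). H2afy2 measured 15.3 to 85.7 CPM in the Cre-negative group, 71.9 and 87.7 CPM in the Control group and 37.7, 58.5, 193, 36.7 and 59.6 CPM in the Dnmt1cKO group. Its highest value was from the library labelled Dnmt1cKO 3, and without it the Dnmt1cKO mean was 48.1 ± 12.6 CPM (SD, n = 4). Exons of Aifm2 overlap those of H2afy2 on the opposite strand, and the use of strand in counting was not given in the sources used here.

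H2A.X, whose phosphorylated form marks DNA breaks, is encoded by H2afx, the replacement variant whose transcript also holds the stem-loop letters, 822 bases before the annotated end. It measured 15.5 to 60.8 CPM in Cre-negative libraries with a median of 30.9, 26.3 and 27.0 CPM in Control libraries, and 33.7, 10.9, 49.8, 78.5 and 2.18 CPM in Dnmt1cKO libraries 1 to 5. The Dnmt1cKO values thus ran both above and below those of all other libraries (adjusted p = 0.997 against Cre-negative). H2afj, which encodes an H2A variant known from senescent human fibroblasts, spread likewise, from 2.61 CPM in Dnmt1cKO 5 to 181 CPM in Dnmt1cKO 4, beside 28.1 to 117 CPM in Cre-negative libraries (adjusted p = 0.999). For the Control comparison of H2afj the values were 32.4 and 13.6 CPM in Control libraries (adjusted p = 1).

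The linker variants differed from each other. H1f0, which encodes the H1.0 of differentiated and resting cells, varied little, at 236 to 569 CPM in the Cre-negative group, 364 and 441 CPM in the Control group and 249 to 527 CPM in the Dnmt1cKO group (adjusted p = 0.973, log2 fold change 0.06 ± 0.25 against Cre-negative). H1fx, which encodes H1.10, had 12, 11, 45, 49, 0, 0 and 37 counts in Cre-negative libraries 1 to 7, 58 and 19 in Control, and 0, 1, 0, 0 and 0 in Dnmt1cKO libraries 1 to 5. Counts were therefore nearly absent from the Dnmt1cKO group, as from Cre-negative libraries 5 and 6, and the Control and Dnmt1cKO groups did not overlap. By summed counts H1fx was 58.3-fold higher in Cre-negative than in Dnmt1cKO libraries (95% exact counting interval 10.3 to 2317) and 88.4-fold higher in Control (15.4 to 3535), intervals that cover counting error only. With the spread between libraries taken into account, edgeR gave an adjusted p of 0.242 against Cre-negative (range 0.169 to 0.673 over the alternatives) and 0.554 against Control. H1fx was the least abundant replacement variant, at 1.58 CPM per kilobase.

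**Figure D2:**
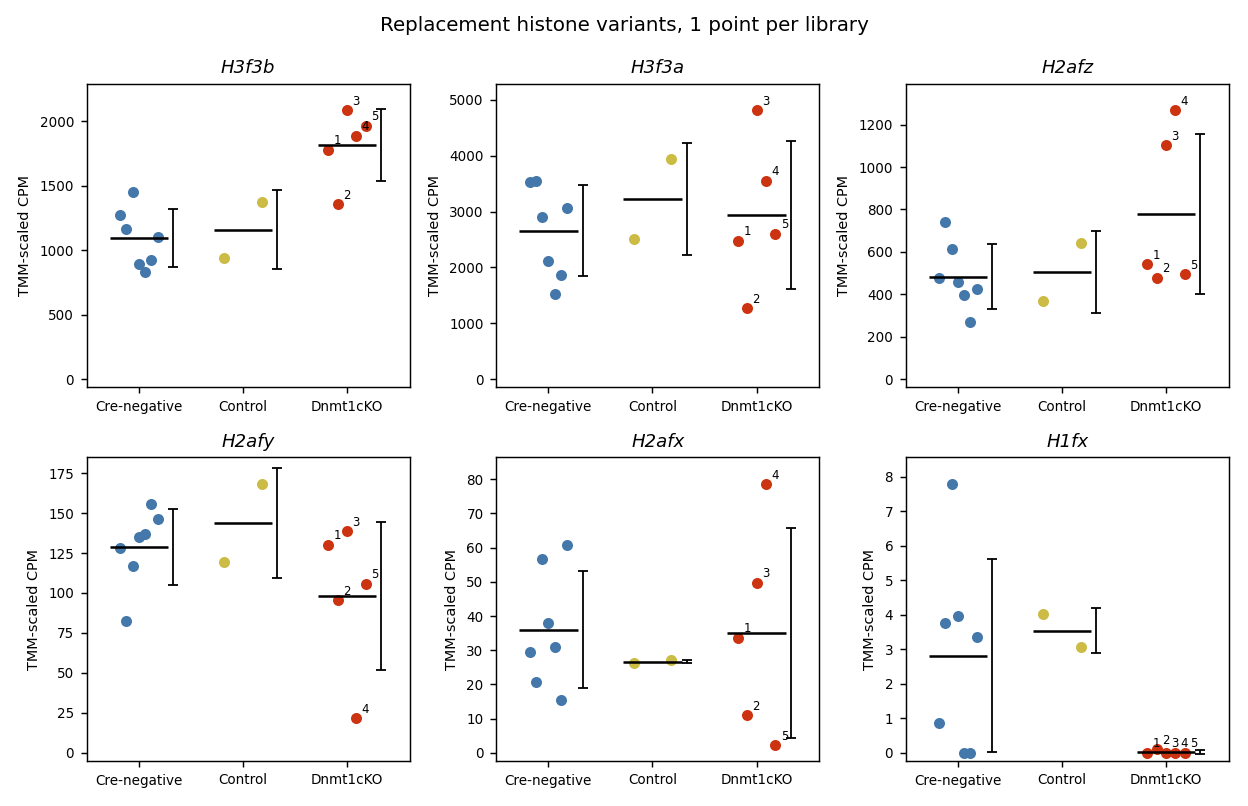
TMM-scaled CPM (vertical axis, with 0 included) of 6 replacement variants in each library, by group, with Dnmt1cKO libraries numbered, the group mean as a line and the SD as a bar. H3f3b lies above the Cre-negative range in 4 of 5 Dnmt1cKO libraries, H2afz in 2 of them, and H1fx is at or near 0 in all 5.

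In order of mean CPM per kilobase the replacement variants were H3f3a (810), H3f3b (457), H2afz (333), H1f0 (197), H2afv (55.5), H2afy2 (30.4), H2afj (28.1), H2afx (24.8), H2afy (17.6) and H1fx (1.58). The ranges of neighbours in this order overlapped over the 14 libraries, except that the lowest value of H1f0 (115) lay above the highest of H2afv (101). Groups that did not overlap were found for 0 of 35 members between Dnmt1cKO and Cre-negative, beside 0.861% (higher) and 0.999% (lower) of all genes tested. Against the 2 Control libraries, Hist2h2be lay higher without overlap (2.86% of members, beside 2.6% of all genes tested), and H1fx, Hist1h2ak and Hist1h2br lay lower (8.57%, beside 9.74%).

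Reads of replication-dependent genes were patchy. Of the 63, 18 had 0 counts in all 14 libraries, 17 reached 3 counts in 1 library only, 17 in 2 to 7 libraries, 9 in 8 to 13 and 2 in all 14. For 33 of them 1 library held at least 50% of the gene's CPM summed over libraries. The number of genes with at least 3 counts ran from 6 in the library labelled Dnmt1cKO 3 to 24 in Control 1, the deepest library. Among tested genes with a mean of 1 to 10 CPM, the 14 replication-dependent members were at 0 in a median of 9.5 libraries, beside 5 libraries for all 3306 genes of that range. Between 10 and 50 CPM the median was 2 libraries for 7 members, beside 1 for 4936 genes.

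Single copies are not resolved well. Transcripts of replication-dependent genes shared a median of 52.3% of their 50-base stretches with another annotated gene, up to 100% for Hist2h2aa2, beside 4.17% for replacement variants. Of their 204 values above 0, 70.1% were not whole numbers, beside 21.6% over the table, which is what RSEM writes when it divides a read among genes. An annotated gene overlapped exons on the opposite strand for 20 of the 63 and on the same strand for 7. Values of single genes in the H2A, H2B and H4 families are therefore uncertain, and the family sums are less affected.

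Detection did not follow the annotated 3′ end in a simple way. Of the 63, 22 had a transcript model that ends within 100 bases of the stem-loop, 20 ran further, and in 21 the model held no stem-loop letters. The median level was 0.291, 0.497 and 0.489 CPM per kilobase in these classes, with at least 3 counts in a median of 1, 1.5 and 2 libraries. A model without stem-loop letters can stop short of the stem-loop, so the 21 genes need not lack one. The Hist1h4k model is 312 bases long, for example, whereas the stem-loop letters of Hist1h4f, another H4 gene, begin at base 343. The 15 genes with a poly(A) signal (AATAAA or ATTAAA) in the last 50 bases of a model held 49.1% of the summed level of the class. The 2 genes with counts in all 14 libraries, Hist1h1c and Hist2h2be, both had such a signal.

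**Figure D3:**
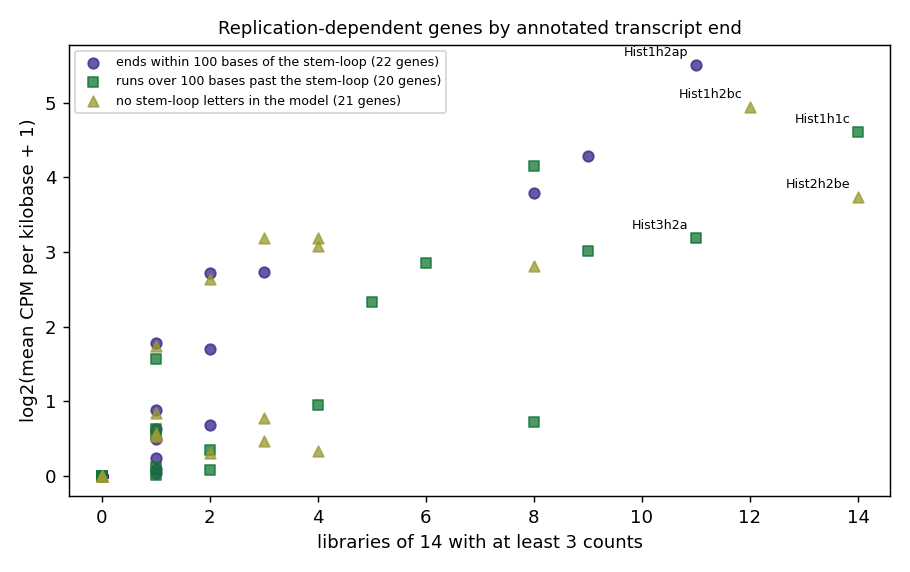
Each point is 1 of the 63 replication-dependent genes, placed by the number of libraries with at least 3 counts (horizontal axis) and log2(mean CPM per kilobase + 1) (vertical axis), with the mark showing where the annotated transcript ends. Hist1h1c and Hist2h2be reach 14 libraries, and most genes stand at 2 libraries or fewer whatever their transcript end.

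Among linker genes, Hist1h1c, which encodes H1.2, was the one with steady counts. It measured 14.0 to 55.1 CPM in Cre-negative libraries with a median of 21.3, 12.9 and 22.2 CPM in Control libraries, and 65.9, 20.9, 104, 56.1 and 47.4 CPM in Dnmt1cKO libraries 1 to 5. Of the Dnmt1cKO libraries, 3 lay above the Cre-negative range. The mean was 26.2 ± 13.5 CPM in the Cre-negative group and 58.8 ± 30.1 CPM in the Dnmt1cKO group (SD), and the log2 fold change of 1.16 ± 0.60 did not pass (adjusted p = 0.407), nor did 1.74 ± 0.96 against Control (adjusted p = 0.839). The library labelled Dnmt1cKO 3 gave the highest value. Hist1h1d, which encodes H1.3, was at 0 to 4.58 CPM in Cre-negative libraries and at 42.2 CPM in Dnmt1cKO 5, with 7.81 CPM or less in the other Dnmt1cKO libraries. Hist1h1a (H1.1) and Hist1h1b (H1.5) stayed at or below 4.78 CPM in every library and had 3 counts or more in 3 libraries each, with adjusted p of 1 for both between Control and Cre-negative. Hist1h1e, which encodes H1.4, did not pass the filter, and its counts were 121 in Dnmt1cKO 5, 1.55 in the library labelled Dnmt1cKO 3 and 1.89 in Control 1, with 0 elsewhere.

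Among H2B genes, Hist1h2bc split the Dnmt1cKO libraries. It lies on chromosome 13 from 23684199 to 23692908 on the plus strand, and its annotated transcript is spliced from 2 exons. It measured 28.2, 24.9, 67.6, 44.4, 56.0, 4.97 and 51.7 CPM in Cre-negative libraries 1 to 7, 16.1 and 20.7 CPM in Control libraries, and 0, 0.521, 167, 1.93 and 0 CPM in Dnmt1cKO libraries 1 to 5. Thus 4 Dnmt1cKO libraries lay below all 9 other libraries, and the library labelled Dnmt1cKO 3, in which Dnmt1 was at 123 CPM, lay above them all. The same library had the highest stroma marker sum of the Dnmt1cKO group (13120 CPM). Of all 14 libraries it had the highest erythroid, endothelial and immune sum (529 CPM) and the lowest urothelium marker sum (6239 CPM). These traits cannot be told apart in 1 library. Over the 5 Dnmt1cKO libraries the log2 fold change of Hist1h2bc against Cre-negative was -0.23 ± 1.17 (adjusted p = 0.978). Without the library labelled Dnmt1cKO 3 it was -5.88 (adjusted p = 0.013), in a range of adjusted p from 0.013 to 0.998 over the alternatives. Limma-voom, with all libraries, gave -4.58 (adjusted p = 0.0605), and the fit with the replicate numbers as a block -5.37 (adjusted p = 0.208). Against Control the log2 fold change was 0.88 ± 1.74 with all libraries (adjusted p = 1) and -4.79 without that library (adjusted p = 0.278). Of the 50-base stretches of Hist1h2bc, 30.1% occur in another gene, with most in common with Hist1h2bg.

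Hist2h2be, the only H2B gene of the class with at least 3 counts in all 14 libraries, has no 50-base stretch in common with another gene. It measured 16.4 to 37.7 CPM in Cre-negative libraries with a median of 28.4, 16.1 and 21.5 CPM in Control libraries, and 23.4, 22.1, 57.7, 71.0 and 56.1 CPM in Dnmt1cKO libraries 1 to 5. The Dnmt1cKO values all lay above those of the 2 Control libraries, and 3 of the 5 lay above the Cre-negative range. Against Cre-negative the log2 fold change was 0.79 ± 0.62 (adjusted p = 0.671), and it was 1.29 ± 0.97 against Control (adjusted p = 1). Other H2B genes were sporadic. Hist1h2bh was at 103 CPM in Dnmt1cKO 1 and at 0 in 3 other Dnmt1cKO libraries. Hist3h2ba was at most 22.0 CPM, in Dnmt1cKO 1.

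**Figure D4:**
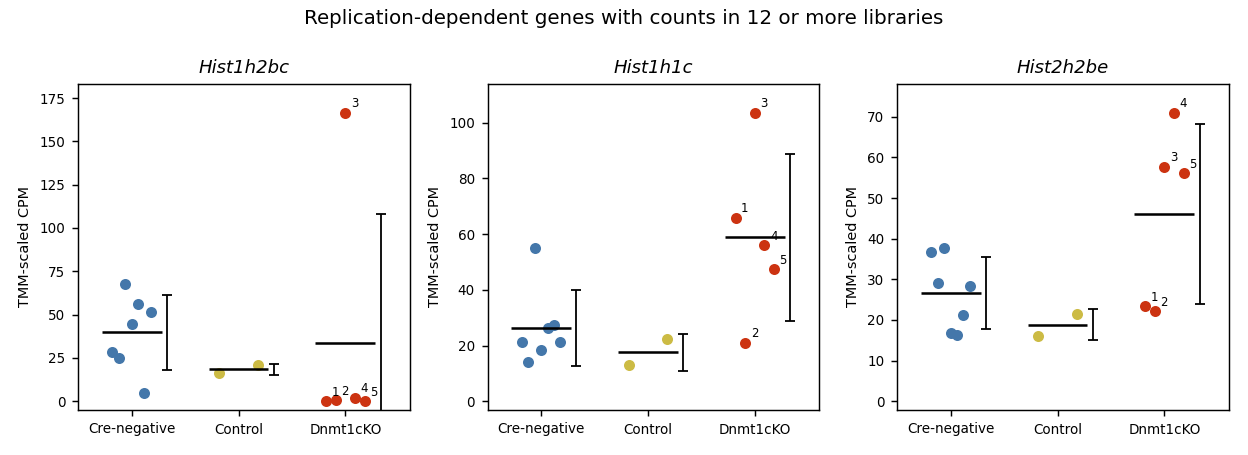
TMM-scaled CPM (vertical axis, with 0 included) of 3 replication-dependent genes in each library, by group, with Dnmt1cKO libraries numbered, the group mean as a line and the SD as a bar. Hist1h2bc is at 1.93 CPM or less in 4 Dnmt1cKO libraries and at 167 CPM in the library labelled Dnmt1cKO 3, whereas Hist1h1c and Hist2h2be are highest in Dnmt1cKO libraries with overlap.

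Several H2B and H4 genes of the Hist1 cluster had a small unadjusted p through counts in 1 to 4 libraries. Hist1h2bl had 94.5 counts in Dnmt1cKO 4, 75.5 in Control 1 and 0 elsewhere, at least 82.8-fold above Cre-negative (adjusted p = 0.146) when 3 counts over the 7 Cre-negative libraries are taken as the limit, and Control stood at least 75.8-fold above Cre-negative (adjusted p = 0.618). Hist1h4h had 11.98 counts in Dnmt1cKO 1, 47 in Dnmt1cKO 4 and 0 in the other 12 libraries, at least 52.0-fold above Cre-negative (adjusted p = 0.128) and 17.1-fold above Control (adjusted p = 0.825). These are values of 1 or 2 libraries. In the other direction, Hist1h4n had 145 and 67.6 counts in Cre-negative libraries 1 and 2, 5.47 in Control 1 and 0 elsewhere, and was at least 26.9-fold lower in Dnmt1cKO (adjusted p = 0.255). DESeq2 called it against Cre-negative (adjusted p = 8.62e-09) and against Control (adjusted p = 0.0353), although 5 of the 7 Cre-negative libraries were also at 0. Hist1h4k had 124 and 83 counts in Cre-negative libraries 3 and 5, 4.02 in Cre-negative 6 and 17.4 in Control 1, and was at least 26.6-fold lower in Dnmt1cKO (adjusted p = 0.249). Hist1h2br and Hist1h2bq, which share 88.7% and 97.3% of their 50-base stretches with other genes, were at 0 in all 5 Dnmt1cKO libraries and at no more than 3.83 CPM elsewhere (adjusted p = 0.248 and 0.28). Hist1h2bg, at 24.8 CPM in Dnmt1cKO 2, was at 0 in both Control libraries (adjusted p = 0.812 in the comparison with Dnmt1cKO and 1 in that with Cre-negative).

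Among H2A genes, Hist1h2ap had the highest mean level of the replication-dependent class, 44.4 CPM per kilobase, but from few libraries. It measured 122 CPM in Cre-negative 2, 130 CPM in Dnmt1cKO 4 and 19.99 CPM or less in the other 12, and 93.1% of its 50-base stretches occur elsewhere. Hist2h2aa2 measured 0 to 12.96 CPM in Cre-negative libraries, 1.18 and 0 CPM in Control libraries, and 39.7, 16.04, 0, 0 and 40.0 CPM in Dnmt1cKO libraries 1 to 5 (adjusted p = 0.749 against Cre-negative). Hist3h2a measured 0 to 36.1 CPM in the Cre-negative group, 21.6 and 24.1 CPM in the Control group and 24.5, 27.9, 0, 0.483 and 44.4 CPM in the Dnmt1cKO group (adjusted p = 0.952), and exons of Trim17 overlap it on the same strand. Hist1h2ag reached 20.4 CPM in Cre-negative 5, beside 16.3 CPM in Dnmt1cKO 1, and was at 0 in 2 Dnmt1cKO libraries. Hist1h2an was at 35.8 CPM in the library labelled Dnmt1cKO 3, 0 in the other 4 Dnmt1cKO and both Control libraries and at most 5.06 CPM in Cre-negative libraries. Hist2h2ac was at 35.8 CPM in Dnmt1cKO 4, 4.84 CPM in Cre-negative 3 and 0 elsewhere. The highest values of these genes thus did not all fall in the same library. Hist1h2ap and Hist2h2ac were highest in Dnmt1cKO 4, and Hist2h2aa2 and Hist3h2a in Dnmt1cKO 5. Hist1h2ag was highest in Cre-negative 5 and Hist1h2an in the library labelled Dnmt1cKO 3.

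The H4 genes are known to encode the same protein as Hist4h4. Their 12 other members summed to 20.05 ± 23.1 CPM in the Cre-negative group, 4.14 ± 1.96 CPM in the Control group and 42.6 ± 53.0 CPM in the Dnmt1cKO group (SD; n = 7, 2 and 5), where the sum ran from 0.722 to 129 CPM. Hist1h4i gave 53.9 and 82.2 CPM in Dnmt1cKO libraries 1 and 5 and 0.722 CPM or less in the other 3, beside 0 to 18.8 CPM in Cre-negative libraries (adjusted p = 0.571). Hist1h4j gave 46.5 CPM in Dnmt1cKO 5, 27.6 CPM in Cre-negative 2, 13.1 CPM in Cre-negative 6 and 0.346 CPM or less elsewhere. The summed H4 level of the Dnmt1cKO libraries was thus set by a few libraries.

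Summed over the 63 genes, the replication-dependent class stood higher in the Dnmt1cKO group. It measured 152, 303, 277, 162, 165, 71.1 and 151 CPM in Cre-negative libraries 1 to 7, 110 and 113 CPM in Control libraries, and 352, 175, 368, 366 and 440 CPM in Dnmt1cKO libraries 1 to 5. Dnmt1cKO 2 lay within the Cre-negative range and the other 4 above it. The means were 183 ± 80.1, 111 ± 2.21 and 340 ± 98.5 CPM (SD; n = 7, 2 and 5), a log2 ratio of 0.89 for Dnmt1cKO to Cre-negative and 1.61 for Dnmt1cKO to Control, given as a description without a test. Depth and library makeup differed along with this sum. Dnmt1cKO 5, with the highest sum, was the shallowest library (2520509 counts), and Lars2, the mitochondrial leucyl-tRNA synthetase, took 4.81% of its counts, beside 0.625% to 1.05% for the most abundant gene of any other library. The other 3 Dnmt1cKO libraries above the Cre-negative range had 3402894 to 4671072 counts, whereas Dnmt1cKO 2 had 9573007, and the highest Cre-negative sum was in the shallowest library of that group (3111972 counts). Without the 3 shallowest libraries (Dnmt1cKO 1, Dnmt1cKO 5 and Cre-negative 2) the log2 ratio of Dnmt1cKO to Cre-negative was again 0.89. The library labelled Dnmt1cKO 3 and Dnmt1cKO 4 (4589475 and 4671072 counts) were still shallower than each Cre-negative library left (5972976 counts or more). This omission therefore cannot separate depth from genotype. The gene that contributed most was a different one in each Dnmt1cKO library: Hist1h2bh in Dnmt1cKO 1 with 29.1% of the sum, Hist3h2a in Dnmt1cKO 2 with 15.96%, Hist1h2bc in the library labelled Dnmt1cKO 3 with 45.3%, Hist1h2ap in Dnmt1cKO 4 with 35.5% and Hist1h4i in Dnmt1cKO 5 with 18.7%. Without that gene, the Dnmt1cKO libraries held 250, 147, 201, 236 and 357 CPM, and the Cre-negative libraries, without their own, 43.7 to 209 CPM. By family, the mean in Dnmt1cKO and in Cre-negative libraries was 80.8 and 28.3 CPM for H1, 92.8 and 56.2 CPM for H2A and 118 and 78.0 CPM for H2B. The replacement variants summed to 5001 ± 1210, 5652 ± 1597 and 6299 ± 2076 CPM, a log2 ratio of 0.33 for Dnmt1cKO to Cre-negative, and the highest sums were in the library labelled Dnmt1cKO 3 and in Dnmt1cKO 4, those with the most stroma marker reads among Dnmt1cKO libraries. The part of stroma in these sums was not tested.

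**Figure D5:**
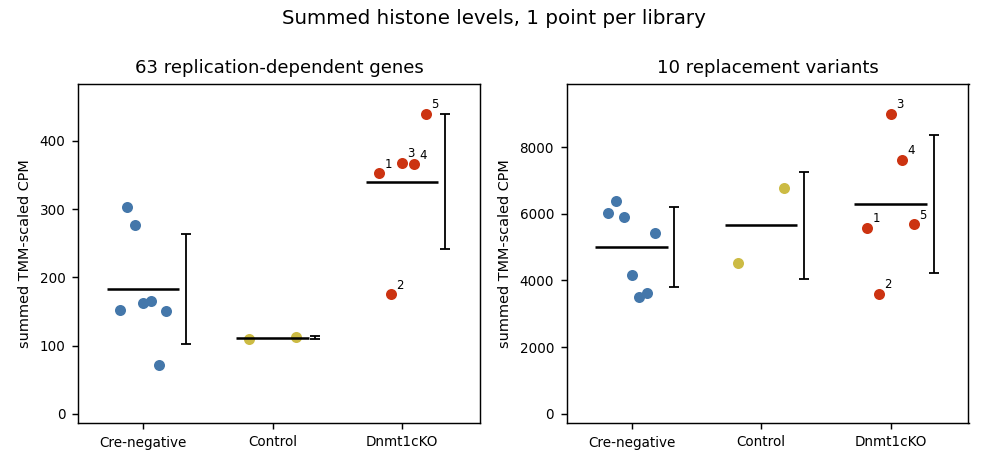
Summed TMM-scaled CPM (vertical axis, with 0 included) of the 63 replication-dependent genes and the 10 replacement variants in each library, by group, with the group mean as a line and the SD as a bar. The replication-dependent sum exceeds the Cre-negative range in 4 of 5 Dnmt1cKO libraries, and the replacement sum in 2 of 5.

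Control libraries, which carry Cre, were compared with Cre-negative libraries, and the 2 groups overlapped for most histone genes. Single values could lie outside the Cre-negative range. H3f3a in Control 2 (3936 CPM) lay above it, as did the summed replacement variants of that library (6781 beside at most 6381 CPM), and Hist1h1c (12.9 CPM) and Hist2h2be (16.1 CPM) lay below it in 1 Control library each. The median log2 fold change was 0.08 over replacement variants and -0.93 over the 25 tested replication-dependent genes, beside -0.04 over all genes tested. Replacement variants with the smallest unadjusted p in the upward direction were H2afy2 (0.55 ± 0.68) and H3f3a (0.28 ± 0.37), each at an adjusted p of 1. The replication-dependent sums of 110 and 113 CPM were within the span of the Cre-negative libraries, 71.1 to 303 CPM.

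Genes that act on histone mRNA or histone proteins were compared as lists. Of 22 genes for processing of the histone mRNA 3′ end and for its transcription, 0 passed the edgeR test between Dnmt1cKO and Cre-negative, 3 had an unadjusted p under 0.05, and the median log2 fold change was -0.13. Over all genes tested in this comparison, 1.1% passed, 13.7% had an unadjusted p under 0.05 and the median was -0.04. Lsm11, a subunit of the U7 particle that directs cleavage after the stem-loop, measured 16.7 ± 15.4 CPM in the Cre-negative group and 1.5 ± 2.67 CPM in the Dnmt1cKO group (adjusted p = 0.323). Zfp473, a zinc finger protein whose human counterpart associates with this particle, was at 2.36 ± 3.69 CPM in the Cre-negative group and 0 in all 5 Dnmt1cKO libraries (adjusted p = 0.255). Cpsf2, a cleavage factor subunit, had 118 ± 29.5 and 60.7 ± 40.1 CPM (adjusted p = 0.304), and Srrt, a cap-binding cofactor, 193 ± 77.5 and 275 ± 53.4 CPM (adjusted p = 0.472). The Cre-negative and Dnmt1cKO values of each of these genes overlapped.

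Of 26 histone chaperones and loading factors, 0 passed the edgeR test against Cre-negative and 3 had an unadjusted p under 0.05, with a median log2 fold change of -0.03, beside 1.1% and 13.7% of all genes tested. The mean of the list on the log2(CPM + 1) scale was 6.504 to 6.99 in Cre-negative, 6.49 and 6.69 in Control and 5.84 to 6.497 in Dnmt1cKO libraries, so that the Dnmt1cKO values lay below all Cre-negative values and overlapped those of Control. The summed level of the list, at 5193 to 6885 CPM in Cre-negative and 5034 to 7621 CPM in Dnmt1cKO libraries, overlapped. Rbbp7, a histone-binding subunit of several chromatin complexes, measured 741 ± 106 CPM in the Cre-negative group and 474 ± 131 CPM in the Dnmt1cKO group (adjusted p = 0.192), and its close relative Rbbp4 187 ± 67.6 and 286 ± 70.7 CPM (adjusted p = 0.362). Nap1l1, a chaperone of H2A and H2B, had 1323 ± 238 and 1873 ± 576 CPM (adjusted p = 0.322), and Cabin1, a subunit of the HIRA complex that loads H3.3, 83.0 ± 53.6 and 48.4 ± 26.8 CPM (adjusted p = 0.56).

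Of 35 genes of S phase and DNA replication, 0 rose and 1 fell in Dnmt1cKO against Cre-negative (beside 1.1% of all genes tested in either direction), 2 had an unadjusted p under 0.05 (beside 13.7%), and the median log2 fold change was 0.02. The gene that fell was Gins3, a subunit of the GINS complex of the replicative helicase, which measured 21.6 ± 11.6 CPM in the Cre-negative and 0.165 ± 0.202 CPM in the Dnmt1cKO group (adjusted p = 0.0211, log2 fold change -6.84 ± 1.53), with 13.2 ± 1.05 CPM in Control. Pole, the catalytic subunit of DNA polymerase epsilon, had 11.9 ± 5.96 and 41.9 ± 18.1 CPM (adjusted p = 0.278), Tyms, the thymidylate synthase, 166 ± 45.5 and 249 ± 101 CPM (adjusted p = 0.389), and Prim1, a primase subunit, 34.8 ± 24.4 and 81.3 ± 50.4 CPM (adjusted p = 0.448). The mean of the list was 5.40 to 6.19 on the log2(CPM + 1) scale in Cre-negative, 5.72 and 5.92 in Control and 5.12 to 6.00 in Dnmt1cKO libraries. The groups therefore overlapped in this measure.

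Of the marker lists, 2 of 20 stroma genes rose against Cre-negative, beside 1.1% of all genes tested (Tagln, log2 fold change 3.65 ± 0.77, adjusted p = 0.0129, and Myh11, 2.82 ± 0.64, adjusted p = 0.0242), and Col1a1 (adjusted p = 0.0608) and Vim (adjusted p = 0.0676) did not pass. Of 20 urothelium genes 1 fell, Shh (-2.60 ± 0.52, adjusted p = 0.00726), whose locus carries the Cre allele. Of these 20 genes, 18 had a lower fitted level in Dnmt1cKO libraries and 2 a higher one (10%, beside 47.9% of all genes tested). An unadjusted p under 0.05 was found for 8 (beside 13.7% of all genes tested), and the median log2 fold change was -0.47. In Control against Cre-negative 0 of the 20 were higher (beside 46.4% of all genes tested), with a median of -0.56. In Dnmt1cKO against Control 10 of the 20 were higher (beside 49.4%), with a median of 0.04. Shh averaged 267, 109 and 43.6 CPM in the Cre-negative, Control and Dnmt1cKO groups. Gata3, Upk2 and Krt7 did not pass in edgeR against Cre-negative (adjusted p = 0.0562, 0.0967 and 0.119). Of 13 erythroid, endothelial and immune genes 9 were tested and 0 passed in edgeR, with 4 at an unadjusted p under 0.05, and the smallest adjusted p values were those of Csf1r (0.163), Hbb-bt (0.242), Hbb-y (0.278) and Pecam1 (0.331). Their summed level was 14.1 to 62.9 CPM in the Cre-negative group, 99.8 and 272 CPM in the Control group and 27.1 to 529 CPM in the Dnmt1cKO group, and it was highest in the library labelled Dnmt1cKO 3.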

How the data were processed

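For the 14 libraries, 1 deposited table holds expected counts per gene symbol, as RSEM gives them. RSEM 1.2.3, Bowtie 0.12.9, bcl2fastq 2.17.1.14 and the genome build mm10 are listed in the submitters' processing notes, and the gene annotation was not given in the sources used here. Per the labels' protocols, mRNA was selected on oligo-dT beads before random priming. Values that were not whole, 7.31% to 21.9% per library, were rounded. Totals were 2520509 to 13131921 counts per library, and intervals and limits cover counting error only.

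Genes were filtered with filterByExpr by group, scaled by TMM and tested in R 4.3.3 by edgeR 4.0.16 (quasi-likelihood). A single model without covariates held all 14 libraries, with Benjamini-Hochberg adjustment over 13011 genes at 0.05. The scripts were tested on simulated data. CPM use TMM-scaled library sizes. Alternatives were RLE scaling, DESeq2 1.42.0, limma-voom (limma 3.58.1), no filter, a filter of 10 counts in 5 libraries, replicate numbers as a block, the stroma mean as a covariate, the 2 groups compared alone, both other groups as reference, omission of the 3 shallowest libraries, and omission of each library.

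Positions, transcript ends and shared sequence were read from GENCODE M21 (GRCm38, equal to mm10), and promoters from RefSeq on GRCm38.p6. The members and gene lists were chosen with earlier results of these data known. Named are every member called in a comparison, every tested replacement variant, the replication-dependent members among the 12 highest by CPM per kilobase, up to 5 members with the smallest unadjusted p in each direction of each comparison, testis or oocyte genes with at least 3 counts (there were none, and the 8 are named as such), up to 4 genes of each of 6 other lists, and Dnmt1. Hist1h1e was named after its value was seen, as were Hist1h1d, Hist1h2bh, Hist1h2ak, Lars2, Upk1a, Krt5 and Ptprc.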

Additional observations from a re-analysis of the deposited data

Results flagged for a closer look

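Values were examined in the Cre-negative and Dnmt1cKO groups for the tested members with at least 3 counts in 8 or more libraries, and for both class sums. A library was singled out where its gap to the nearest other library of its group took up more of the group's range than chance allows in about 1 of 20 groups. Of 44 groups examined, 8 held such a library. In the library labelled Dnmt1cKO 3, Hist1h2bc stood at 167 CPM beside 1.93 CPM for the next library, and H2afy2 at 193 CPM beside 59.6 CPM. In Dnmt1cKO 4, Hist1h2ap stood at 130 CPM beside 2.89 CPM and H2afj at 181 CPM beside 53.1 CPM. In Dnmt1cKO 5, Hist1h1d stood at 42.2 CPM beside 7.81 CPM. Among Cre-negative libraries, Hist1h2ap stood at 122 CPM in Cre-negative 2 beside 19.99 CPM, Hist1h1c at 55.1 CPM in Cre-negative 3 beside 27.4 CPM, and Hist1h2ak at 15.6 CPM in Cre-negative 5 beside 6.48 CPM. The high values of Hist1h2ap fell in 1 library of either group, and 93.1% of its 50-base stretches occur in another gene.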

How the results depend on the processing

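The count of called members was 0 in each direction of each comparison and remained 0 under most alternatives. Against Cre-negative, 1 member was called higher with DESeq2 and with limma-voom (H3f3b in both), beside 322 and 162 of all 13011 genes tested. With no filter on low counts 1 was called higher (Hist1h1e, log2 fold change 9.34, adjusted p = 0.0468, from 121 counts in Dnmt1cKO 5), beside 205 of all 15161 genes tested. With 1 library left out, 0 to 1 members were called higher (H3f3b without Dnmt1cKO 2, beside 154 of all 12768 genes tested). In the other direction 0 to 1 were called lower (Hist1h2bc without the library labelled Dnmt1cKO 3, beside 19 of all 13029 genes tested). DESeq2 called 1 member lower against Cre-negative and 1 against Control (beside 229 and 24 of all 13011 genes tested), Hist1h4n in both, with log2 fold changes of -21.82 and -16.97. Both summed levels moved by less than the spread between libraries under RLE scaling, under library totals alone, with each library left out and, chosen after seeing the data, without the 3 shallowest libraries. For the replication-dependent sum, the log2 ratio of Dnmt1cKO to Cre-negative ranged from 0.75 to 1.06.

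Alternatives were tallied for 34 pairs of a histone gene and a comparison. These were the pairs with the smallest unadjusted p, and Hist1h2bc and Hist2h2be in both Dnmt1cKO comparisons. Under 556 alternatives of these, 533 kept their sign and side of the threshold, 6 passed the threshold and 17 changed sign. In 4 others no fold change could be had, since leaving out 1 library left 0 counts in both groups: Hist1h2bl between Control and Cre-negative and Hist1h4k and Hist1h4n between Dnmt1cKO and Control, each without Control 1, and Hist1h2an between Dnmt1cKO and Control without the library labelled Dnmt1cKO 3. For Hist1h2bc the sign changed against Cre-negative without the 3 shallowest libraries (0.44) and ranged from -5.88 to 0.092 with 1 Dnmt1cKO library left out. Against Control it became -3.65 with limma-voom, -5.20 with the replicate block and -0.54 with the stroma covariate, and ranged from -4.79 to 1.2 with 1 library left out. Others changed sign while far from the threshold: Hist1h2an against Control with the replicate block (-0.0034), H2afy2 (-0.43), Hist1h1a (-0.17) and Hist1h4j (2.83) for Control against Cre-negative with the stroma covariate, and Hist2h2ac with DESeq2 (0.042) and with the replicate block (0.067). With 1 Control library left out, the value ranged from -0.057 to 0.61 for H3f3a and from -3.86 to 2.08 for Hist1h1a. The cause was not tested. Among the 71 other pairs of a tested member and a comparison, 52 changed sign in at least 1 alternative and 0 were called. H1f0 and H2afy against Cre-negative, whose fold changes are given above, belong to these 71.

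Replicate numbers of the 3 groups did not pair the libraries, with correlations between -0.19 and 0.11 of same-numbered deviations, and under the replicate block 0 members were called. The Control group had 2 libraries, so its spread was borrowed from the pooled fit. In the shallowest library 3 counts equal 1.19 CPM by its total without TMM scaling, above the group mean of several replication-dependent genes.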
